A study of Homo sapiens with 4 samples.

Results

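miR-191 and miR-425 (hsa-miR-191 and hsa-miR-425 in the files) are the main mature miRNAs of a small cluster that lies inside the DALRD3 gene on the short arm of human chromosome 3. They were followed across small RNA libraries from exosomes and cells of a pair of breast lines. Both names, matched exactly and without a star, were found in every library, so 2 of the 1100 mature miRNA names in the deposited files are described here. Their passenger arms, miR-191* and miR-425*, are given beside them as a further readout of the same hairpins.

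The 4 libraries came from exosomes of MDA-MB-231, cells of MDA-MB-231, exosomes of MCF-10A and cells of MCF-10A, with 1 library in each group. MDA-MB-231 is a triple-negative human breast cancer line with mesenchymal features, grown here with 10% fetal bovine serum. MCF-10A is a non-transformed human mammary epithelial line, grown with 5% horse serum, insulin, EGF, cholera toxin and hydrocortisone. The labels name no genetic change or drug, nor a clone, for either line, and how the exosomes were purified is not given in the sources used here. Exosomes are small membrane vesicles shed by cells, with RNA among their cargo.

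A miRNA is cut as a hairpin from a longer transcript by Drosha and then trimmed by Dicer to a short duplex. One strand is loaded into an Argonaute protein and guides it to mRNAs, mainly through its seed, bases 2 to 8 from the 5′ end, and the other strand, the passenger or star arm, is mostly lost. miR-191 and miR-425 are made from 1 host transcript, are widely expressed in epithelial and blood cells, and have been reported to rise with oestrogen receptor signalling in breast cancer. Both lines studied here lack that receptor. miR-191 has also been used as a reference for normalising miRNA measurements.

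The hairpins lie 383 bases apart on the minus strand (GRCh38, GENCODE release 29), MIR425 at chr3:49020148-49020234 and MIR191 at chr3:49020618-49020709. Both fall in intron 1 of the principal protein-coding transcript of DALRD3, a protein needed for methylation of certain arginine tRNAs. That intron spans chr3:49018319-49020845, and on the opposite strand MIR191 lies within the span of NDUFAF3, a mitochondrial complex I assembly gene. The deposited files hold no coordinates, and the submitters' processing notes name the build hg18. The mature arms are shown because their relative numbers of reads carry the main result. They are from RefSeq (GRCh38.p14), written 5′ to 3′ with the seed in capitals, and 3 of the 4 arms were matched. In the MIR191 hairpin, capitals mark both mature arms, the miR-191 arm first.
miR-191 (5p arm, chr3:49020672-49020694): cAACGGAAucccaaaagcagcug
miR-191* (3p arm, chr3:49020631-49020652): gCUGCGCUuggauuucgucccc
miR-425* (3p arm, chr3:49020159-49020180): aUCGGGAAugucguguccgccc
MIR191 hairpin (chr3:49020618-49020709): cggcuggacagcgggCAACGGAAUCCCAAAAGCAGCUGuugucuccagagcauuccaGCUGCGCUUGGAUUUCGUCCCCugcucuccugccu
Among 2370 mature names of the RefSeq table, 0 shared a seed with any of these 3 arms.

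The deposited values are on a log2 scale, and their low values are whole multiples of the worth of 1 read, which gave depths of 1532908 miRNA reads for exosomes of MDA-MB-231, 7346076 for cells of MDA-MB-231, 1254641 for exosomes of MCF-10A and 10937895 within the library labelled MCF-10A cell. Every level below is the deposited value, the log2 of (reads in 10000000 miRNA reads, plus 1), and needs no correction for length because each miRNA gives a read of about the same length. Intervals are 95% counting intervals on the recovered reads. They cover counting error only, since PCR reads without molecular identifiers are not independent molecules and no group had a second library. No p-value was computed.

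One library differed from the rest in content. Summed over 40 marker miRNAs of muscle, stroma and endothelium, blood, liver, nerve and placenta, the share of reads was 2.37% in exosomes of MDA-MB-231, 0.0690% in cells of MDA-MB-231, 0.0814% in exosomes of MCF-10A and 49.2% within the library labelled MCF-10A cell. Of these markers, 20, 10, 11 and 40 had 10 or more reads, in that order. The 7 muscle markers were at 0 for 3, 5, 6 and 0 names in the same order. The 7 epithelial markers (the miR-200 family with miR-205 and miR-203) held 0.0232%, 0.0460%, 4.41% and 1.01% of reads, and miR-205 was at 0 reads in cells of MDA-MB-231. The 9 placental markers were at 0 for 8, 8, 9 and 0 names. Since a level is a share of the library's miRNA reads, reads on these markers reduce what is left for every other name, and a lower share of cells of 1 type cannot be told apart from less RNA per cell. Each comparison that uses this library carries that difference in content, and beyond a recount over the other reads its part in the results for miR-191 and miR-425 was not tested.

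Both miRNAs were abundant in every library, and miR-191 always exceeded miR-425. miR-191 stood at 15.33 in exosomes of MDA-MB-231, 14.36 in cells of MDA-MB-231, 15.09 in exosomes of MCF-10A and 15.95 within the library labelled MCF-10A cell, from 6314, 15446, 4376 and 69240 reads. It was thus highest in the library labelled MCF-10A cell and lowest in cells of MDA-MB-231, with the exosomes of both lines between them. miR-425 stood at 12.95 in exosomes of MDA-MB-231, 13.05 in cells of MDA-MB-231, 12.80 in exosomes of MCF-10A and 12.11 within the library labelled MCF-10A cell, from 1213, 6229, 895 and 4834 reads. Its order began with cells of MDA-MB-231 and ended with the library labelled MCF-10A cell, so the ends of the order were those of miR-191 exchanged, and 3 of its 4 levels lay within 0.25 of each other.

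As a share of all miRNA reads, miR-191 took 0.412% in exosomes of MDA-MB-231 (Wilson interval 0.402 to 0.422), 0.210% in cells of MDA-MB-231 (0.207 to 0.214), 0.349% in exosomes of MCF-10A (0.339 to 0.359) and 0.633% within the library labelled MCF-10A cell (0.628 to 0.638). miR-425 took 0.0791% (0.0748 to 0.0837), 0.0849% (0.0827 to 0.0869), 0.0713% (0.0668 to 0.0762) and 0.0442% (0.0430 to 0.0455) in the same order. Over the reads outside the 40 markers of other tissues, the share of miR-425 was 0.0810%, 0.0849%, 0.0714% and 0.0870%, so that the library labelled MCF-10A cell then had its highest share. The share of miR-191 on that base was 0.422%, 0.211%, 0.349% and 1.25%, and its high value in that library became higher still.

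**Figure D1:**
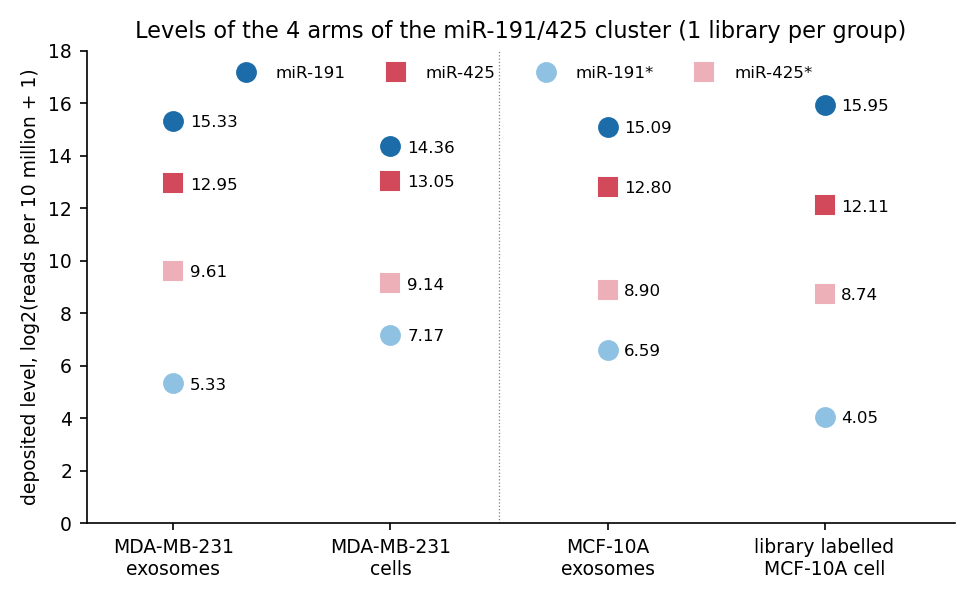
Deposited level of each arm (vertical axis, log2 of reads per 10000000 plus 1) in the 4 libraries (horizontal axis), 1 point per library. miR-191 runs from 14.36 to 15.95 and miR-425 from 12.11 to 13.05, while miR-191* runs from 4.05 to 7.17.

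Among the names above 0, miR-191 ranked 27 of 508 in exosomes of MDA-MB-231, 39 of 566 in cells of MDA-MB-231, 26 of 436 in exosomes of MCF-10A and 26 of 794 in the library labelled MCF-10A cell. miR-425 ranked 66, 58, 54 and 119 in the same order. In exosomes of MDA-MB-231 miR-191 stood between miR-221 at 15.55, which with miR-222 targets the cell cycle inhibitor p27, and miR-23a at 15.32. In exosomes of MCF-10A it had the same level as let-7g, a tumour-suppressive let-7 member whose gene also lies on the short arm of chromosome 3. In exosomes of MDA-MB-231 miR-425 stood between miR-379 at 13.04 and miR-106b at 12.94, and in exosomes of MCF-10A between miR-148b at 12.81 and miR-423-3p at 12.76.

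As deposited, neighbouring levels in the order of miR-191 differed beyond counting error at each step. The library labelled MCF-10A cell was 1.54-fold above exosomes of MDA-MB-231 (1.5 to 1.58), these 1.18-fold above exosomes of MCF-10A (1.14 to 1.23), and the last 1.66-fold above cells of MDA-MB-231 (1.60 to 1.72). For miR-425 the first steps were small. Cells of MDA-MB-231 were 1.07-fold above exosomes of MDA-MB-231 (1.01 to 1.14), these 1.11-fold above exosomes of MCF-10A (1.02 to 1.21), and the last 1.61-fold above the library labelled MCF-10A cell (1.5 to 1.73). With 1 library in a group it is unknown whether steps of this size exceed the spread between cultures. Both orders also depended on the scaling. Under upper-quartile scaling the step between the exosome libraries turned, to a log2 difference of -0.21 for miR-191 and -0.30 for miR-425. miR-191 was then higher in cells of MDA-MB-231 than in the library labelled MCF-10A cell, by 0.85.

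The ratio of the 2 miRNAs within a library needs no scaling between libraries and so does not depend on how they are normalised. There were 5.21 miR-191 reads per miR-425 read in exosomes of MDA-MB-231 (exact binomial interval 4.89 to 5.54), 2.48 in cells of MDA-MB-231 (2.41 to 2.55), 4.89 in exosomes of MCF-10A (4.55 to 5.26) and 14.3 within the library labelled MCF-10A cell (13.9 to 14.8). The exosomes of both lines thus held the 2 miRNAs in nearly the same ratio, while the cell libraries lay on either side of it. Exosomes of MDA-MB-231 differed from exosomes of MCF-10A by 1.06-fold in this ratio (0.968 to 1.17), an interval that includes no difference. Exosomes of MDA-MB-231 had 2.10 times the ratio of cells of MDA-MB-231 (1.96 to 2.25). Exosomes of MCF-10A had 0.342 times the ratio of the library labelled MCF-10A cell (0.316 to 0.369). Between the cell libraries, cells of MDA-MB-231 had 0.173 times the ratio of the library labelled MCF-10A cell (0.166 to 0.180). The exosome to cell change in this ratio therefore ran in opposite directions in the 2 lines. No replicate library was there to test that difference. For MCF-10A the cell value came from a library with 49.2% of reads on markers of other tissues. The part of that content in the ratio was not tested. Among the other cluster pairs given below, some also changed in opposite directions, such as miR-99b over miR-125a-5p. Others did not, such as miR-27a over miR-23a, so opposite directions alone do not set this pair apart.

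**Figure D2:**
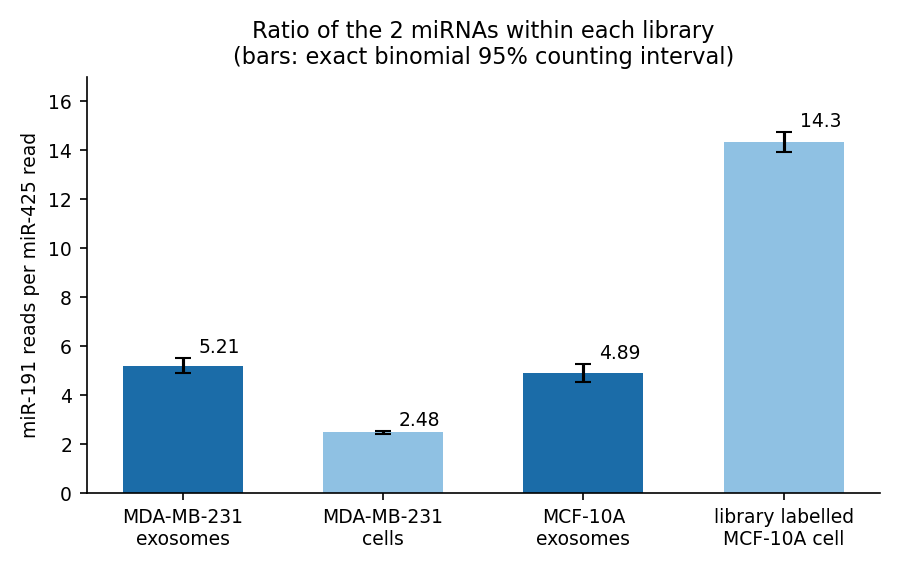
Reads of miR-191 per read of miR-425 (vertical axis, from 0) in each of the 4 libraries, dark bars for exosomes and light bars for cell libraries, with exact binomial 95% counting intervals. The ratio was 5.21 and 4.89 in the exosomes of both lines, 2.48 in cells of MDA-MB-231 and 14.3 within the library labelled MCF-10A cell.

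The ratio was set beside that of other miRNAs that come from a shared transcript or cluster, 20 pairs with at least 50 reads per 10000000 in every library. The log2 ratio of miR-425 over miR-191 ranged over 2.53 across the 4 libraries, where the other pairs ranged over 0.70 to 9.13 with a median of 3.30, and 13 of the 20 ranged more widely. Without the library labelled MCF-10A cell its range was 1.07, against a median of 0.92, with 9 of 20 wider. Between the exosomes of the lines the ratio of the 2 miRNAs changed by 0.09 (log2), less than in 19 of the 20 other pairs, whose median change was 0.66. The remaining pair, miR-20a over miR-17 of the oncogenic miR-17-92 cluster, changed by 0.05 and is named here after its value was seen. Between exosomes of MDA-MB-231 and cells of MDA-MB-231 the change of the pair was 1.07, more than in 15 of the 20 others, whose median was 0.53. The comparisons with the library labelled MCF-10A cell did not set the pair apart. Between the cell libraries it changed by 2.53, against a median of 2.515, with 10 of the 20 larger. Between exosomes of MCF-10A and that library it changed by 1.55, against a median of 2.615, with 16 of the 20 larger.

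Of these other pairs, those with the highest levels were miR-27a over miR-23a, miR-30c over miR-30e, miR-181b over miR-181a and miR-99b over miR-125a-5p. In exosomes of MDA-MB-231, cells of MDA-MB-231, exosomes of MCF-10A and the library labelled MCF-10A cell, the log2 ratio of miR-27a over miR-23a was 1.05, 1.37, 0.67 and 0.85. That of miR-30c over miR-30e, from an intron of NFYC, was -2.29, -1.43, -1.53 and 0.10. miR-181b over miR-181a was -0.15, -0.18, -0.80 and -3.37, and miR-99b over miR-125a-5p was 3.32, 3.49, 2.52 and -0.14. For the last 3 pairs the library labelled MCF-10A cell was farthest from the rest, as it was for miR-425 over miR-191. Members of a pair share a library and often a transcript, so the 20 pairs are no independent sample, and some of their miRNAs also come from a second gene.

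**Figure D3:**
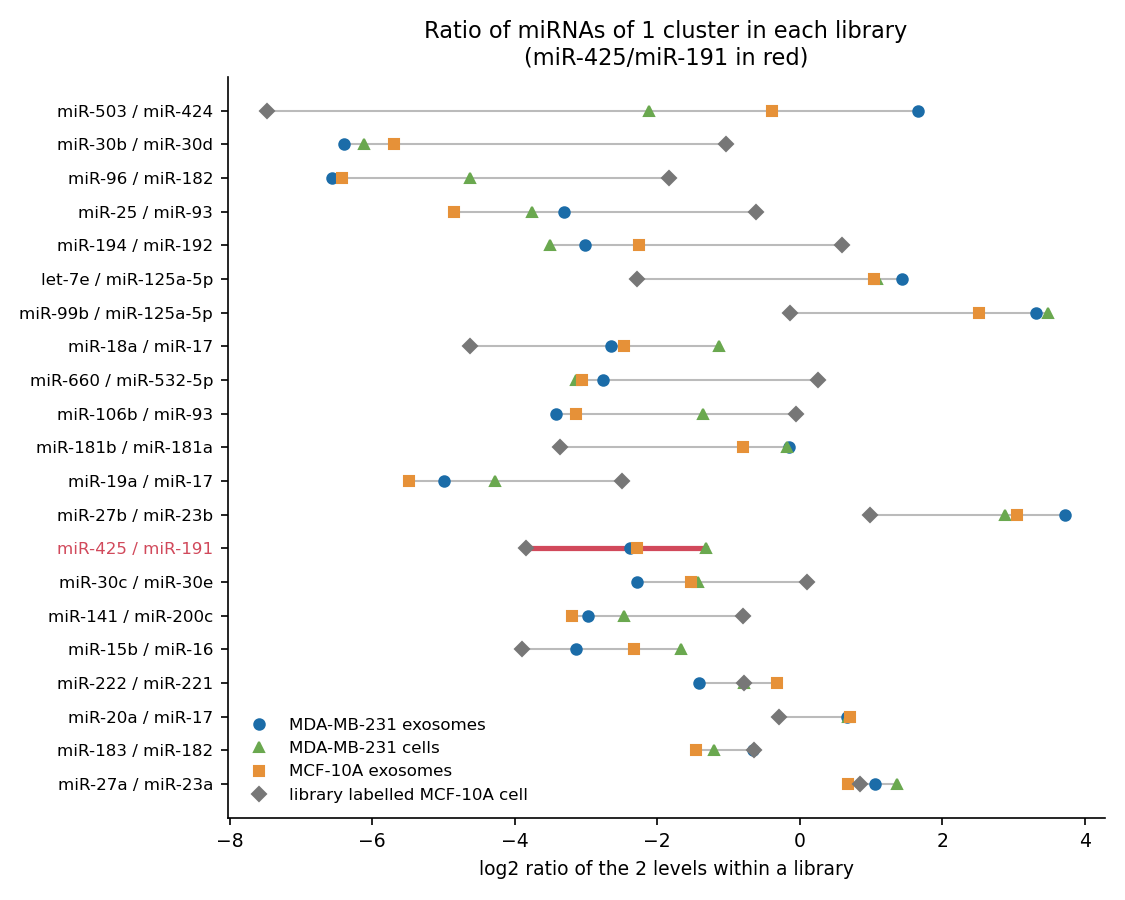
Log2 ratio of 2 miRNAs of the same cluster (horizontal axis) for 21 pairs (rows, ordered by range), 1 symbol per library, with a line from the lowest to the highest value. For miR-425 over miR-191, in red, the exosome libraries lie at -2.38 and -2.29, cells of MDA-MB-231 at -1.31 and the library labelled MCF-10A cell at -3.84.

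The first comparison between libraries asked whether exosomes of the cancer line carry more or less of each miRNA than those of the non-transformed line. As deposited, the levels were close. miR-191 was 1.18-fold higher in exosomes of MDA-MB-231 than in exosomes of MCF-10A (1.14 to 1.23, log2 difference 0.24). Of 5 other scalings, trimmed mean of M values and upper quartile turned this to lower (range -0.21 to 0.40). Under the median of ratios no difference was left beyond rounding (-0.0031). miR-425 was 1.11-fold higher (1.02 to 1.21, log2 difference 0.15), and turned to lower under all 3 of these scalings (range -0.30 to 0.31). Neither reached a 4-fold difference, where 48.3% of the 505 names that reached 10 reads per 10000000 in either library did. The median log2 difference over those names was 0.59, so both members lay slightly below it, and 8.71% of names had a smaller absolute difference than miR-191 and 4.95% than miR-425. These shares include names with very few reads, since 1 read was worth 6.52 per 10000000 in exosomes of MDA-MB-231 and 7.97 in exosomes of MCF-10A. With a minimum of 50 reads per 10000000, 101 names were at least 4-fold higher and 67 lower, against 148 and 96.

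The exosomes of MDA-MB-231 were then compared with the cells that released them. miR-191 was 1.96-fold higher in exosomes of MDA-MB-231 than in cells of MDA-MB-231 (1.90 to 2.02, log2 difference 0.97), and stayed higher under all 5 other scalings, at 0.71 to 1.05. miR-425 was 0.933 times its level in cells of MDA-MB-231 (0.877 to 0.993, log2 difference -0.10), and lay between -0.36 and -0.02 under those scalings. Of the 499 names compared, 35.7% differed at least 4-fold (22.2% higher, 13.4% lower in exosomes) and neither member did. The median over them was -0.09, and miR-425 sat at 0.01 below it, while 68.9% of names had a lower difference than miR-191. Exosomes of MDA-MB-231 also held 2.37% of their reads on markers of other tissues, against 0.0690% in cells of MDA-MB-231. Over the reads outside the marker lists the log2 difference of miR-191 was 1.00, against 0.97 as deposited. Beyond that recount, the part of this content in the higher miR-191 was not tested.

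In the cell libraries, as deposited, the members went opposite ways, which upper-quartile scaling and the recount outside the marker lists undid. miR-191 was 0.332 times as high in cells of MDA-MB-231 as in the library labelled MCF-10A cell (0.326 to 0.338, log2 difference -1.59), lower under 4 of 5 other scalings and higher under upper-quartile scaling (range -2.56 to 0.85). miR-425 was 1.92-fold higher in cells of MDA-MB-231 (1.85 to 1.99, log2 difference 0.94), and -0.03 over the reads outside the marker lists, with a range of -0.03 to 3.38. Of the 665 names compared, 71.6% differed at least 4-fold, neither member among them, and the median log2 difference was -2.83. Relative to that median, miR-191 was 1.24 and miR-425 3.77 higher. The median includes names that passed the minimum only through the library labelled MCF-10A cell, such as miR-124, with 0 reads in cells of MDA-MB-231. Nothing is therefore read from the members lying above it. The library labelled MCF-10A cell held 49.2% of its reads on markers of other tissues, and the part of this was not tested.

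Exosomes of MCF-10A were set against the library labelled MCF-10A cell last. miR-191 was 0.551 times as high in exosomes of MCF-10A (0.534 to 0.568, log2 difference -0.86), but higher under upper-quartile scaling (range -1.84 to 1.77). miR-425 was 1.61-fold higher in exosomes of MCF-10A (1.5 to 1.73, log2 difference 0.69), but lower over the reads outside the marker lists (range -0.29 to 3.32). Of 661 names, 72.6% differed at least 4-fold (15.4% higher, 57.2% lower in exosomes) and neither member did, and the median was -3.27. The exosome over cell difference of MDA-MB-231 minus that of MCF-10A was 1.83 for miR-191 (1.77 to 1.89) and -0.79 for miR-425 (-0.93 to -0.65), against a median of 2.91 over 701 names. That contrast shares every limit of the library labelled MCF-10A cell, and its sign turned for miR-191 under upper-quartile scaling and for miR-425 without the marker lists. The medians of -3.27 and 2.91 also include names that passed the minimum only through that library. Nothing is read from the places of the members against them.

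**Figure D4:**
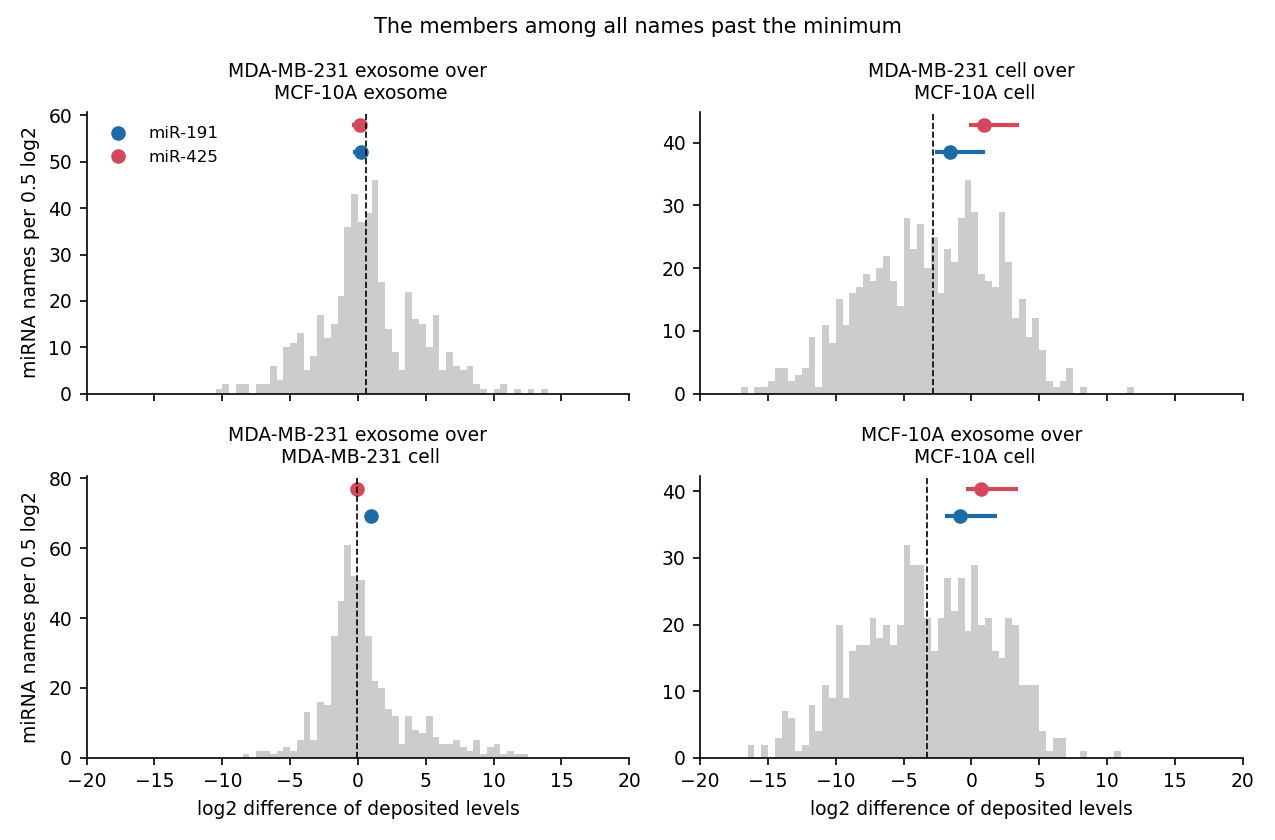
Histograms of the log2 difference of deposited levels (horizontal axis) over all names past the minimum (grey, names per 0.5 log2) in the 4 comparisons, with the median dashed. Points above give miR-191 and miR-425 as deposited and lines their range over 5 other scalings; in exosomes of MDA-MB-231 over MCF-10A the points are at 0.24 and 0.15, near 0.

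The passenger arms give a second reading of each hairpin. miR-425* stood at 9.61 in exosomes of MDA-MB-231, 9.14 in cells of MDA-MB-231, 8.90 in exosomes of MCF-10A and 8.74 within the library labelled MCF-10A cell, from 120, 414, 60 and 467 reads. There were 10.1 miR-425 reads per miR-425* read in exosomes of MDA-MB-231 (8.37 to 12.3), 15.0 in cells of MDA-MB-231 (13.6 to 16.7), 14.9 in exosomes of MCF-10A (11.5 to 19.7) and 10.4 within the library labelled MCF-10A cell (9.41 to 11.4). The log2 ratio of these arms ranged over 0.57 across the libraries, below all 61 other names that had a star arm, a nonzero level of both arms in each library and at least 50 reads per 10000000 of 1 arm throughout. Those ranged over 0.60 to 10.2 with a median of 3.18, and without the library labelled MCF-10A cell 10 of the 61 ranged over less than 0.57.

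miR-191* was rare, and its libraries stood in the reverse order of those of miR-191. It stood at 5.33 in exosomes of MDA-MB-231, 7.17 in cells of MDA-MB-231, 6.59 in exosomes of MCF-10A and 4.05 within the library labelled MCF-10A cell, from only 6, 105, 12 and 17 reads. Its order over the libraries was thus led by cells of MDA-MB-231, where miR-191 was lowest, and closed by the library labelled MCF-10A cell, where miR-191 was highest. Each pair of neighbours in that order had a counting interval that includes no difference. There were 1052 miR-191 reads per miR-191* read in exosomes of MDA-MB-231 (483 to 2869), 147 in cells of MDA-MB-231 (121 to 180), 365 in exosomes of MCF-10A (209 to 706) and 4073 within the library labelled MCF-10A cell (2544 to 6992). In log2 this arm ratio was 10, 7.19, 8.5 and 11.9, against medians of 5.19, 4.62, 4.76 and 6.19 over the 61 other names in the same libraries. In the library labelled MCF-10A cell 1 of the 61 had a higher arm ratio, and in the others 11, 14 and 14 had. The arm ratio of exosomes of MDA-MB-231 was 7.01 times that of cells of MDA-MB-231 (3.08 to 16), and that of exosomes of MDA-MB-231 2.83 times that of exosomes of MCF-10A (1.06 to 7.54), both resting on 6 reads of miR-191*.

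Between libraries, miR-191* was 9.20-fold higher in cells of MDA-MB-231 than in the library labelled MCF-10A cell (5.48 to 16.4), and 6.15-fold higher in exosomes of MCF-10A than in that library (2.68 to 13.7). Both directions held under the 5 other scalings, and these are the comparisons in which miR-191* passed 4-fold as deposited, as did 17.3% and 15.4% of all names in the higher direction. Over the reads outside the marker lists the log2 difference of exosomes of MCF-10A over that library was 1.56, short of 4-fold. miR-191* had 0.274 times its MDA-MB-231 cell level in exosomes of MDA-MB-231 (0.0983 to 0.616). For miR-425* the corresponding folds lay nearer 1, at 1.32 for cells of MDA-MB-231 over the library labelled MCF-10A cell (1.15 to 1.51) and 1.39 for exosomes of MDA-MB-231 over cells of MDA-MB-231 (1.12 to 1.71), and the first turned to lower over the reads outside the marker lists.

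**Figure D5:**
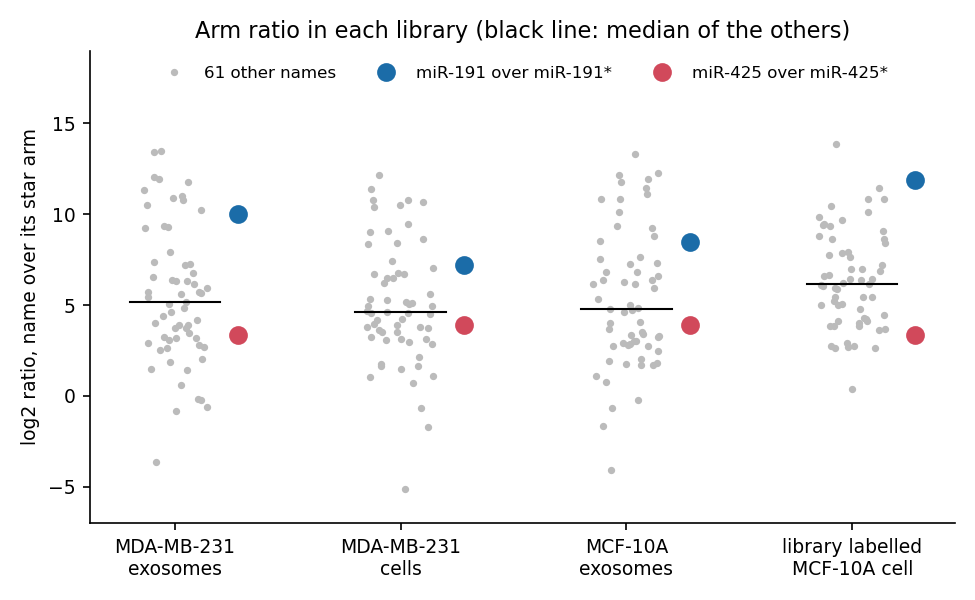
Log2 ratio of a miRNA over its star arm (vertical axis) in the 4 libraries, for miR-191, miR-425 and 61 other names (grey points, black line at their median). miR-425 stays between 3.34 and 3.91, while miR-191 runs from 7.19 in cells of MDA-MB-231 to 11.9 in the library labelled MCF-10A cell.

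How constant the members were was read against 209 names with at least 50 reads per 10000000 in every library. As deposited, the level of miR-425 ranged over 0.94 (log2), and 9 of the 209 names ranged over less. miR-191 ranged over 1.59, with 35 of 209 below it, and the median range was 2.91. Without the library labelled MCF-10A cell miR-425 ranged over 0.25 and miR-191 over 0.97, with 4 and 49 of 224 names below them and a median of 1.63. Which of the 2 ranged less depended on the scaling. Under the trimmed mean of M values miR-425 ranged over 1.48 and miR-191 over 1.09, under the median of ratios over 1.37 and 1.23, under the upper quartile over 3.38 and 1.77, and without miR-21 in the total over 1.57 and 0.96. Of the 209 names, 36, 31, 98 and 33 ranged less than miR-425 under these scalings, in the same order, and 12, 22, 31 and 10 less than miR-191. Over the reads outside the marker lists miR-425 ranged over 0.29, with 0 of the 209 names below it, and miR-191 over 2.56, with 81 below it. Of 17 miRNAs that have been proposed as references for normalisation, these 2 included, those with the highest levels were let-7a, miR-24, miR-103 and miR-93, which as deposited ranged over 2.91, 2.05, 2.27 and 3.10. Only miR-423-3p, named here after its value was seen, ranged less than miR-425 among the 17 as deposited, at 0.56. In exosomes of MDA-MB-231 over exosomes of MCF-10A 17 of the 17 lay within 4-fold, against 48.3% of all names past it. That share includes names with very few reads, and the median of the list was 0.58. In cells of MDA-MB-231 over the library labelled MCF-10A cell 12 of the 17 lay within 4-fold, 3 were higher and 2 lower, where 71.6% of all names were past it, 17.3% higher and 54.3% lower.

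The names whose pattern was most like each member were found by the root mean square difference of centred log2 levels over the 4 libraries; values of 1 library share its depth and scaling. For miR-191 they were miR-361-5p (0.29), miR-125a-5p (0.34), let-7c (0.36), let-7d* (0.37) and miR-125b-2* (0.38). For miR-425 they were miR-130b* (0.20), miR-28-3p (0.25), miR-425* itself (0.28), miR-92a (0.30) and miR-30e (0.32). miR-425 was only at place 58 for miR-191 (among 209 names, miR-191 included), at 0.90, and miR-191 at place 73 for miR-425. Without the library labelled MCF-10A cell 0 of the 5 names of either member stayed among its nearest 5. let-7e (0.06) then led for miR-191 and let-7a* (0.03) for miR-425.

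Other miRNAs of the short arm of chromosome 3 were set beside the cluster. Of 17 such names, 7 passed the minimum in the exosomes of the lines, with 4 higher by 4-fold or more in MDA-MB-231, 0 lower and 3 within, beside 29.3% higher and 19% lower of all names. The 4 were both arms of miR-138, with miR-135a* (3 reads in exosomes of MDA-MB-231, 0 in exosomes of MCF-10A) and miR-885-3p (2 and 0 reads), which passed the minimum only where they were high, so nothing is read from the count. let-7g stood at 14.83 in exosomes of MDA-MB-231 and 15.09 in exosomes of MCF-10A, and miR-26a, which targets EZH2, at 13.80 and 12.43. miR-138, a regulator of cell migration, stood at 14.22 and 8.43, and miR-128 at 10.01 and 8.55. Some of these, such as miR-26a, miR-128 and miR-138, have a second gene on another chromosome. In cells of MDA-MB-231 over the library labelled MCF-10A cell 9 passed, with 2 higher, 5 lower and 2 within, beside 17.3% and 54.3% of all names; 3 of the 5 (miR-135a and both arms of miR-885) had 0 reads in cells of MDA-MB-231. miR-128 and miR-885-5p also stand among the markers of other tissues, as does miR-206 of the next list.

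A list of 7 miRNAs known to target the oestrogen receptor mRNA was set beside the cluster because of its reported link to that receptor. In exosomes of MDA-MB-231 over exosomes of MCF-10A 1 of 7 was at least 4-fold higher, 1 lower and 5 within, where 29.3% of all names were higher and 19% lower. The higher name was miR-206, also a muscle marker, with 12 reads in exosomes of MDA-MB-231 and 0 in exosomes of MCF-10A, so it passed the minimum only where it was high. The lower one was miR-193b, at 7.84 and 10.07. miR-221 stood at 15.55 in exosomes of MDA-MB-231 and 14.27 in exosomes of MCF-10A, miR-222 at 14.13 and 13.95, miR-22 at 13.24 and 12.37, and miR-18a at 11.95 and 12.69. In exosomes of MDA-MB-231 over cells of MDA-MB-231 1 was higher, 1 lower and 5 within, where 22.2% of all names were higher and 13.4% lower. The higher name was again miR-206, with 12 reads in exosomes of MDA-MB-231 and 1 in cells of MDA-MB-231, and the lower one miR-18a, at 11.95 and 14.46. In cells of MDA-MB-231 over the library labelled MCF-10A cell 1 was higher (miR-18a) and 4 lower of the 7, where 17.3% of all names were higher and 54.3% lower.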

How the data were processed

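Small RNAs of 17 to 52 nt were sequenced on a Genome Analyzer IIx after ligation at the 5′ monophosphate, per the labels' protocols, with 1 library per group. The submitters' processing notes list Novoalign, edgeR and the build hg18, with neither role nor version. Which miRBase release was used is not given in the sources used here. Values deposited by the authors are log2 levels with 2 decimals. Labels do not state their scale, which was inferred: undoing a log2 of (level + 1) gave a total near 10000000 for every library. Whole reads were recovered from the step between low values, and 100% of the values fine enough to resolve single reads (rounding interval under 0.5 reads, 40.1% to 65.7% of nonzero names) held a whole number. Larger numbers are known to 0.347%.

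A name entered a comparison if it reached 10 reads per 10000000 in either library, and a log2 difference of 2 (4-fold) counted as called. A few reads of an exosome library reach that minimum. Folds are ratios of recovered reads with exact conditional binomial intervals, log2 differences are of the deposited values (pseudocount 1), and intervals of ratios of ratios use the normal approximation on the log scale. With 1 library per group no test across replicates exists. Alternatives were 5 scalings, other minimums (0, 50, 500), a pseudocount of 10, recovered reads, and leaving out the library labelled MCF-10A cell. Named miRNAs were the members, their star arms, the 5 most alike, up to 4 of the highest level per list, and neighbours in level. Names outside that rule that are given as the calls of a list (miR-206, miR-193b, miR-138-1*, miR-135a, miR-135a* and both arms of miR-885) were chosen after their values were seen. Members and lists were chosen with earlier results of these data known. Scripts (Python 3.11.15, numpy 2.4.6, pandas 2.3.3, scipy 1.17.1) were tested on simulated data.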

Additional observations from a re-analysis of the deposited data

Results flagged for a closer look

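The same contrast ran in opposite directions in the 2 lines, or in the 2 fractions, for 3 of the 4 arms, and with 1 library per group none of these differences was tested. The exosome minus cell difference of miR-191 (log2 level) was 0.97 in MDA-MB-231 and -0.86 in MCF-10A. For miR-425 it was -0.10 in MDA-MB-231 and 0.69 in MCF-10A. For miR-191* it was -1.84 in MDA-MB-231 (6 against 105 reads) and 2.54 in MCF-10A (12 against 17 reads). The MDA-MB-231 minus MCF-10A difference of miR-191 was 0.24 in exosomes and -1.59 in cell libraries, and that of miR-191* was -1.26 in exosomes and 3.12 in cell libraries. For miR-191 the exosome value turned to -0.11 under the trimmed mean of M values, so that both values were then negative. Under the median of ratios it was -0.0031, 0 within rounding, and under the upper quartile both values turned, to -0.21 and 0.85. The exosome minus cell values of miR-191 were 0.71 in MDA-MB-231 and 1.77 in MCF-10A under the upper quartile, both positive. Without the marker lists those of miR-425 were -0.07 and -0.29, both negative. Those of miR-191* kept opposite signs under every scaling. Opposite signs of the exosome minus cell difference were seen in 42.1% of the 701 names with at least 10 reads per 10000000 in any library, and of the MDA-MB-231 minus MCF-10A difference in 40.8%. Every one of these pairs of values includes the library labelled MCF-10A cell, which held 49.2% of its reads on markers of other tissues, and the part of that was not tested.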

How the results depend on the processing

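No paired analysis was possible because each line gave 1 exosome and 1 cell library, so a pair has no replicate; the within-line differences stand as values without a test. Every value below is a log2 difference in the order trimmed mean of M values, median of ratios, upper quartile, total without marker lists, total without miR-21, where a setting left out stayed within the counting interval. For miR-191, MDA-MB-231 over MCF-10A exosomes gave -0.11, 0.00 (a value of -0.0031), -0.21 and, without miR-21, 0.40. MDA-MB-231 cells over the library labelled MCF-10A cell gave -1.09, -1.23, 0.85, -2.56 and -0.96. MDA-MB-231 exosomes over cells gave 0.91, 1.05, 0.71 and, without miR-21, 0.91. MCF-10A exosomes over the library labelled MCF-10A cell gave -0.073, -0.18, 1.77, -1.84 and -0.45, and the difference between the lines 0.98, 1.23, -1.06, 2.84 and 1.36. For miR-425 the same comparisons gave -0.20, -0.093, -0.30 and, without miR-21, 0.31; then 1.44, 1.30, 3.38, -0.035 and 1.57; then -0.36 under the upper quartile; then 1.48, 1.37, 3.32, -0.29 and 1.10; and for the difference between the lines -1.64, -1.39, -3.68, 0.22 and -1.26. For miR-425*, cell libraries gave 0.90, 0.76, 2.84, -0.57 and 1.03, MCF-10A exosomes over the library labelled MCF-10A cell 0.95, 0.84, 2.79, -0.82 and 0.57, and the difference between the lines -0.54, -0.29, -2.58, 1.32 and -0.16. For miR-191*, cell libraries gave 5.56 under the upper quartile and 2.15 without the marker lists, and under the upper quartile MCF-10A exosomes over that library gave 5.17 and the difference between the lines -7.27. A scaling adds 1 constant to all names of a comparison, so the ratio of miR-191 to miR-425 within a library does not change; the cause of the other moves was not tested. The median of all names moved with it, in MDA-MB-231 over MCF-10A exosomes between 0.14 and 0.75, against 0.59 as deposited. Log2 ratios of recovered reads without a pseudocount equalled the deposited differences of both members to rounding. The folds and their counting intervals come from those same reads, so this setting is no separate check on them.

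Names higher by 4-fold or more in cells of MDA-MB-231 than in the library labelled MCF-10A cell numbered 226 under the upper quartile and 71 without the marker lists, against 115. Those higher in MCF-10A exosomes than in that library numbered 211 and 67, against 102. Names lower in exosomes of MDA-MB-231 than in its cells numbered 103 with no minimum, 38 with a minimum of 50 and 38 with a pseudocount of 10, against 67. With a minimum of 500 reads per 10000000 in every library, 3 of the 5 names most like miR-425 stayed. Without the marker lists miR-191* in MCF-10A exosomes over the library labelled MCF-10A cell was 1.56, short of 4-fold. The ranges of both members under the 5 scalings were computed after seeing the data. Depth limits miR-191* most, with 6 reads in exosomes of MDA-MB-231 and 12 in those of MCF-10A.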
